A study of Mus musculus with 33 samples.

Results

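A pair of populations of YFP+ mononuclear phagocytes from the kidney were compared by RNA sequencing: CD11bhi YFP+ cells, with 5 libraries, and F4/80hi YFP+ cells, with 3. These 8 libraries were taken by their titles from the 33 of the series. All came from 10-week-old C57BL/6 mice in which both copies of Clec9a carry Cre and both copies of Rosa26 carry the YFP reporter, so no library has an unaltered Clec9a gene and no library lacks Cre. Both populations were sorted as CD45+, Ly6C-, MHC class II+ and CD64+; one was then taken as F4/80low CD11bhi and the other as F4/80hi CD11blow. A further 11 libraries of YFP+ kidney conventional dendritic cells, 6 of type 1 (cDC1) and 5 of type 2 (cDC2), carry the same alleles and were used only for a term described below. The labels do not say whether the libraries of a group came from separate mice, so p-values measure the spread between these libraries.

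Clec9a encodes a C-type lectin receptor that dendritic cell precursors and cDC1 express. Cre under its control switches on YFP for good, so YFP marks cells that express Clec9a or descend from cells that did. CD64, the high-affinity IgG receptor encoded by Fcgr1, and F4/80, an adhesion G protein-coupled receptor encoded by Emr1 (Adgre1), are commonly used to define macrophages. Conventional dendritic cells depend on the cytokine receptor Flt3 and express the transcription factor Zbtb46, whereas tissue macrophages depend on the receptor Csf1r. The comparison therefore asks which transcripts of the dendritic cell and of the macrophage programme separate YFP+ cells that share the CD64 gate but differ in F4/80 and CD11b.

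Gene reads ran from 8729224 to 19731541 per library, and from 9769885 to 23000575 in the dendritic cell libraries. Replicate 4 of the CD11bhi cells stood apart in read quality: 45.85% of its reads were unmapped and 64.0% fell outside the gene counts, against 28.01% to 34.78% outside in the other 7 libraries. Across genes, the correlation of log2 CPM (counts of a gene scaled to a common total of gene reads) was 0.943 to 0.976 within CD11bhi libraries, 0.968 to 0.973 within F4/80hi libraries and 0.853 to 0.906 between them. Library names begin with BS in all CD11bhi libraries and GS in all F4/80hi libraries, and the labels do not give the meaning. Population and prefix therefore cannot be told apart within the 8 libraries. The kidney cDC1 (3 BS, 3 GS) and cDC2 (2 BS, 3 GS) libraries hold both, and the main model, edgeR's quasi-likelihood test on 19 libraries, estimates a prefix term from them. A gene is called where its Benjamini-Hochberg adjusted p is under 0.05 and its absolute log2 fold is at least 1. All folds are CD11bhi over F4/80hi, all adjusted p-values are from that edgeR test unless another fit is named, and levels are TMM-scaled CPM, as mean ± SD between libraries (n = 5 and n = 3).

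The sorting markers were checked first. Emr1 was at 231, 252, 201, 122 and 151 CPM in the CD11bhi libraries and at 2410, 2250 and 1820 in the F4/80hi libraries. No CD11bhi library came near an F4/80hi one, and the log2 fold was -2.99 (SE 0.32, adjusted p = 1.96e-06). Itgam, which encodes CD11b, was at 545, 623, 478, 605 and 536 CPM against 305, 112 and 149. These levels did not overlap, but the log2 fold of 1.52 missed the threshold (SE 0.54, adjusted p = 0.0565), while the 8 libraries alone gave 1.55 with a call, as did the main model without F4/80hi replicate 1 (2.04). The fit blocked by sort code called it too (log2 fold 1.68, edgeR adjusted p = 0.0401). Fcgr1 was present in all 8 libraries, at 104 ± 27.6 and 266 ± 53.4 CPM. Ly6c2, a gene of the Ly6C antigen against which the cells were gated, was at 2.44 to 27.3 CPM in CD11bhi and 0 to 0.342 CPM in F4/80hi libraries (log2 fold 6.24, SE 1.06, adjusted p = 0.000335). Ly6c1, the other gene of that antigen, was at 0.479 ± 0.578 and 3.32 ± 1.96 CPM with overlapping libraries and was not called (log2 fold 1.36, and -2.75 in the 8 libraries alone, also without a call). Clec9a transcripts were scarce, at a mean of 0.142 CPM in CD11bhi and 0.139 CPM in F4/80hi cells. They were also scarce in kidney cDC1, at means of 0.949 CPM in BS and 1.62 CPM in GS libraries. Both copies of Clec9a carry Cre in all of these libraries, so these levels do not show whether the locus is active. The class II gene H2-Ab1 was at 29400 ± 3490 and 31900 ± 5980 CPM and Ptprc, which encodes CD45, at 1090 ± 162 and 1280 ± 65.3 CPM.

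Of 13161 genes tested, 1079 (8.2%) were higher and 615 (4.67%) lower in CD11bhi YFP+ cells, which is 12.9% in either direction. The counts of called list members below are to be read against these shares. Some genes count in several lists, so the counts are not independent. Zbtb46 and Bcl11a are in the lists of dendritic cell factors and of shared dendritic cell genes, and Lgmn in those of the class II pathway and the lysosome. Fitted on the 8 libraries alone, without any prefix term, 937 of 12272 genes were higher (7.64%) and 977 lower (7.96%). Without the prefix term in the fit of 19 libraries the counts were 937 and 838. Both fits called 704 genes higher (5.74%) and 407 lower (3.32%), and 0 genes were called in opposite directions. Among all genes, 14.6% had every CD11bhi library above every F4/80hi library and 16.1% the reverse. Without CD11bhi replicate 4, the library with many unmapped reads, 1014 genes were higher and 604 lower. In bulk libraries, fewer cells of a kind and less RNA per cell cannot be told apart.

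**Figure D1:**
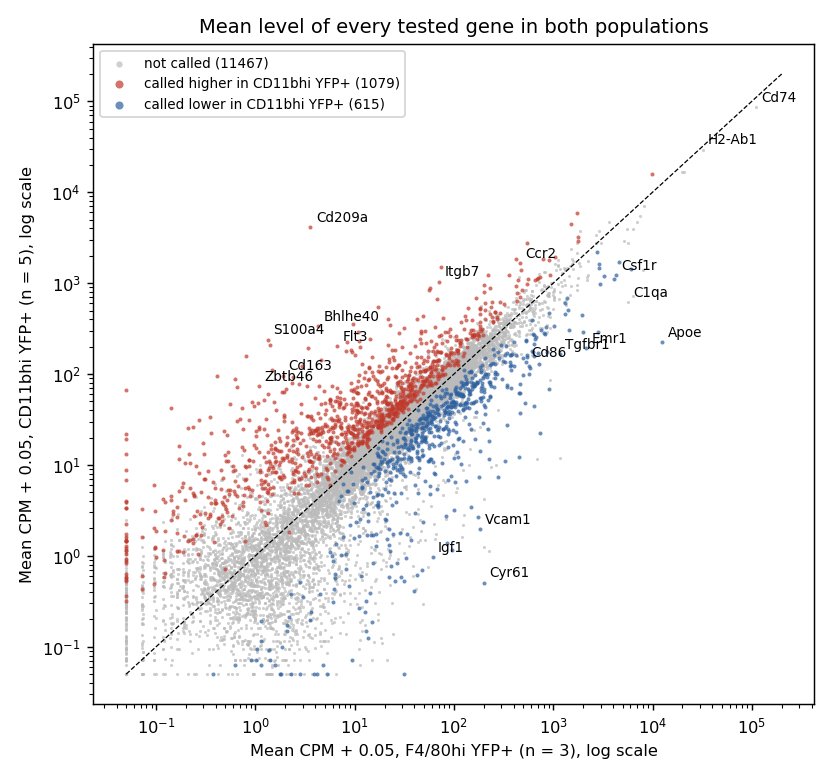
Mean CPM + 0.05 of each tested gene in F4/80hi YFP+ (n = 3, horizontal, log scale) against CD11bhi YFP+ cells (n = 5, vertical, log scale); red points are the 1079 genes called higher and blue points the 615 called lower in CD11bhi YFP+ cells, and the dashed line marks equal levels. Cd209a, Flt3 and Zbtb46 lie far above the line and Emr1, Vcam1 and Cyr61 far below it, while the class II genes H2-Ab1 and Cd74 lie close to it.

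Of 16 tested transcription factors of dendritic cells, 7 were higher and 1 was lower in CD11bhi cells (median log2 fold 0.84, against 0.03 over all genes), and the 8 libraries alone gave the same counts. Bhlhe40, a basic helix-loop-helix repressor found in activated myeloid cells, was at 193, 285, 361, 431 and 407 CPM in CD11bhi and 4.8, 3.08 and 4.92 CPM in F4/80hi libraries. Every CD11bhi library was far above every F4/80hi one (log2 fold 6.87, SE 0.54, adjusted p = 3.47e-08). Irf4, needed for cDC2 function, was at 68.7, 58.0, 61.3, 90.3 and 54.3 CPM against 9.09, 11.8 and 6.49, again without overlap (log2 fold 2.72, SE 0.60, adjusted p = 0.00385). Nfil3, which acts early in the commitment of dendritic cell precursors, was at 36.8 ± 9.49 and 4.22 ± 1.30 CPM (log2 fold 3.16, SE 0.46, adjusted p = 7.26e-05). Irf8, the factor on which cDC1 depend, was the member that was lower, at 171 ± 51.2 CPM in CD11bhi and 703 ± 74.5 CPM in F4/80hi cells (log2 fold -1.94, SE 0.30, adjusted p = 0.000113). Id2, an inhibitor of E proteins used by all conventional dendritic cells, was not called, at 135 ± 27.9 and 239 ± 43.8 CPM.

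Of 23 tested genes shared by conventional dendritic cells, 15 were higher and 1 lower, with a median log2 fold of 3.41. Flt3 was at 207, 198, 190, 215 and 197 CPM in CD11bhi libraries and at 15.4, 1.87 and 2.39 CPM in F4/80hi libraries. The CD11bhi libraries lay within a narrow range and all F4/80hi libraries were at least an order of magnitude below it (log2 fold 4.82, SE 0.55, adjusted p = 3.44e-06). Zbtb46 and the inhibitory receptor gene Btla had means of 73.3 and 72.3 CPM against 1.04 and 0.605 CPM. Amica1 (Jaml), a junctional adhesion molecule, was at 123 ± 27.5 and 2.89 ± 0.389 CPM (log2 fold 5.44, SE 0.25, adjusted p = 2.4e-11). Slamf7, a receptor of the SLAM family, was expressed by both populations, at 555 ± 24.3 and 328 ± 17.4 CPM, and its log2 fold of 0.64 was below the threshold.

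C-type lectin genes, which encode receptors for carbohydrate ligands, gave 8 higher and 2 lower among 27 tested (median log2 fold 0.89), and 7 and 4 in the 8 libraries alone. Cd209a, the mouse DC-SIGN gene, was at 3840, 3130, 4850, 4350 and 4340 CPM in CD11bhi libraries against 6.95, 2.74 and 0.888 CPM. Its relatives Cd209b, Cd209c and Cd209d and the linked lectin gene Clec4g were likewise high in all CD11bhi libraries, with means of 41.8, 21.7, 13 and 19.2 CPM. F4/80hi libraries held no read of Cd209c, Cd209d or Clec4g, so these genes were at least 307-fold, 193-fold and 289-fold higher in CD11bhi cells, bounds set from 3 counts over the F4/80hi group. The calls of Cd209c and Clec4g ended in 1 alternative, with the prefix term taken from cDC1 alone. These 5 genes lie within 248 kb on chromosome 8, from 3707064 to 3954746 (GRCm38). Clec10a, a galactose-binding lectin of cDC2, was at 493, 400, 641, 657 and 532 CPM against 13.5, 22.3 and 15.8 CPM, with no overlap (log2 fold 4.64, SE 0.46, adjusted p = 7.5e-07). Its close paralog Mgl2 was not called, at 1340 ± 111 and 831 ± 466 CPM, with F4/80hi libraries spread from 349 to 1280 CPM. Of 20 tested genes of cDC2 and mature dendritic cells, Cd209a and Clec10a among them, 4 were higher and 1 lower. The 8 libraries alone gave 5 and 2. The lower one was Cd4, at 7.48 ± 2.16 and 92.6 ± 55.8 CPM (log2 fold -3.82, SE 0.81, adjusted p = 0.0028).

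Among 24 tested genes typical of monocytes, 13 were higher and 0 lower (median log2 fold 2.66), and 15 were higher in the 8 libraries alone. S100a6, a small calcium-binding protein, was at 422, 285, 352, 342 and 354 CPM in CD11bhi libraries and 16.6, 6.49 and 5.47 CPM in F4/80hi libraries. Its groups were wide apart (log2 fold 6.01, SE 0.57, adjusted p = 3.86e-07). Plac8, a gene of monocytes and of dendritic cell precursors, was at 47.6 ± 21.2 and 1.01 ± 1.05 CPM (log2 fold 6.53, SE 0.81, adjusted p = 1.06e-05). Ccr2, the receptor that brings monocytes from the bone marrow to tissue, was at 1650 ± 266 and 463 ± 142 CPM (log2 fold 1.46, SE 0.35, adjusted p = 0.00679), and limma on TPM did not call it. Outside this list, Mcemp1, a mast cell and myeloid membrane protein gene named for the size of its fold, was at 208 ± 39.1 and 1.34 ± 0.881 CPM. Kidney dendritic cells also transcribed several of these genes. In BS and GS cDC2 libraries, S100a6 had means of 282 and 606 CPM, Mcemp1 of 292 and 360 CPM and Plac8 of 22.2 and 63.0 CPM. In cDC1 the means were 66.2 and 98.6, 4.92 and 7.39, and 309 and 447 CPM. Fn1, another member called higher, was at 16.3 ± 10.3 CPM in CD11bhi cells and at 3.41 and 4.5 CPM in cDC2. Lyz2, the myeloid lysozyme gene, was not called, and F4/80hi libraries ranged from 2050 to 9340 CPM and overlapped the CD11bhi range of 1880 to 3940 CPM. S100a8, a gene of classical monocytes and neutrophils, had 0 reads in CD11bhi and 1 read in F4/80hi libraries.

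**Figure D2:**
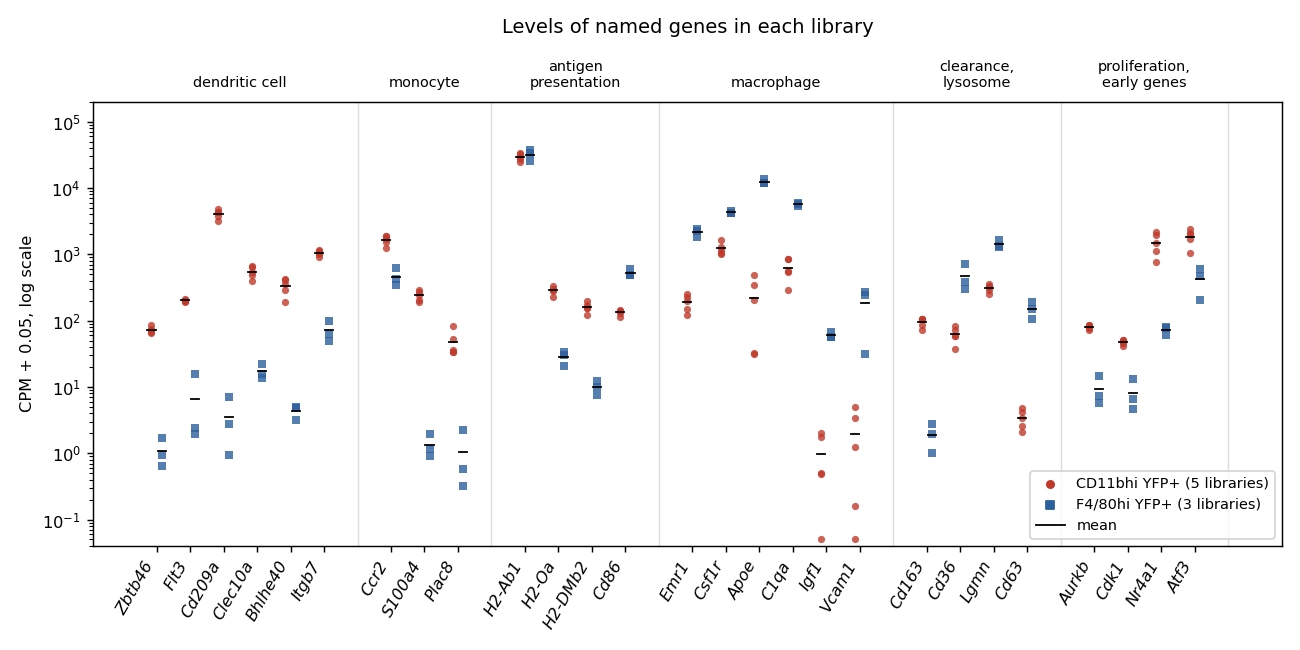
CPM + 0.05 (vertical, log scale) of named genes, 1 point per library, with CD11bhi YFP+ libraries as red circles (5) and F4/80hi YFP+ libraries as blue squares (3) and the mean as a black line. The dendritic cell, monocyte, proliferation and early genes shown lie higher in CD11bhi cells and the macrophage genes higher in F4/80hi cells; the libraries of H2-Ab1 overlap, and C1qa, whose libraries do not, is not called with the prefix term.

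Genes of the class II pathway were called in both directions. Cd74, the invariant chain, and H2-Ab1 were not called and their libraries overlapped, with Cd74 at 86500 ± 6670 and 111000 ± 31000 CPM. Of 15 tested members, 4 were higher and 1 lower, and 5 and 2 in the 8 libraries alone. The higher ones included H2-Oa and H2-Ob, which encode the chains of the peptide exchange inhibitor H2-O, and H2-DMb2, a chain of the exchange factor H2-M. H2-Oa was at 282, 226, 292, 297 and 330 CPM in CD11bhi and 30.5, 33.3 and 20.8 CPM in F4/80hi libraries (log2 fold 3.78, SE 0.41, adjusted p = 2.32e-06). H2-DMb2 was at 162 ± 28.8 and 9.92 ± 2.38 CPM (log2 fold 4.41, SE 0.32, adjusted p = 1.11e-08), and H2-Ob at 265 ± 23.3 and 90.2 ± 48.5 CPM (log2 fold 1.58). The 3 genes lie on chromosome 17 (GRCm38), H2-Oa at 34092340 to 34095234, H2-DMb2 at 34143307 to 34151555 and H2-Ob at 34238903 to 34254414. H2-DMb2 has a near-identical neighbour, H2-DMb1, at 34153072 to 34160230, so reads may be split between them. Ifi30, the thiol reductase that opens disulfide bonds of antigens, was also higher (371 ± 40.7 and 118 ± 22.1 CPM, log2 fold 2.07). Lgmn, the lysosomal asparaginyl endopeptidase, was lower, at 330, 353, 287, 255 and 322 CPM against 1650, 1350 and 1290 CPM (log2 fold -1.95, SE 0.21, adjusted p = 2.23e-06). Among 19 class I genes, 1 was called: Psmb8, an immunoproteasome subunit, at 697 ± 127 and 462 ± 103 CPM with overlapping libraries. The 8 libraries alone did not call it, and its call also ended without F4/80hi replicate 2 or 3 or CD11bhi replicate 3 or 5 (1.03 to 1.19, against 1.19).

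Costimulatory genes did not move together: of 19 tested, 5 were higher and 1 lower, and 7 and 2 in the 8 libraries alone. The B7 ligands for CD28 were called in opposite directions. Cd86 was at 146, 142, 132, 113 and 138 CPM in CD11bhi and 491, 601 and 492 CPM in F4/80hi libraries, lower by a log2 fold of -2.12 (SE 0.18, adjusted p = 8.33e-08). Cd80 was at 13.8, 14.1, 17.9, 13.5 and 11.3 CPM against 3.33, 4.69 and 2.46 CPM, higher by a log2 fold of 1.88 (SE 0.37, adjusted p = 0.00131). Neither gene's libraries overlapped between the groups. Tnfsf9, which encodes the ligand of 4-1BB, was at 317 ± 119 and 31.2 ± 6.64 CPM (log2 fold 3.96, SE 0.36, adjusted p = 1.86e-07). Cd83, a marker of mature dendritic cells, was at 1250 ± 327 and 724 ± 158 CPM, short of a call with a log2 fold of 0.97 (adjusted p = 0.0516).

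Macrophage transcription factors gave 0 higher and 5 lower of 19 (median log2 fold -0.56), and 7 lower in the 8 libraries alone. Maf, a regulator of the resident macrophage programme, was at 3.41, 4.41, 3.95, 2.99 and 0.807 CPM in CD11bhi and 57.6, 123 and 120 CPM in F4/80hi libraries. All CD11bhi libraries were more than an order of magnitude below the lowest F4/80hi one (log2 fold -5.60, SE 0.82, adjusted p = 7.26e-05). Runx1, a haematopoietic factor, was at 136 ± 30.6 and 368 ± 76.1 CPM (log2 fold -1.63, SE 0.22, adjusted p = 2.64e-05). Bhlhe41, a relative of Bhlhe40, went the opposite way to it, at 0.215 ± 0.198 and 11.1 ± 5.56 CPM (log2 fold -4.77, SE 1.10, adjusted p = 0.00516).

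Of 37 tested macrophage core genes, 0 were higher and 16 lower (median log2 fold -1.47), and in 31 every CD11bhi library lay below every F4/80hi library, as in 16.1% of all genes. The 8 libraries alone called 26 lower. Sepp1 (Selenop), a secreted carrier of selenium, was at 320, 359, 295, 227 and 252 CPM in CD11bhi and 2020, 2080 and 1920 CPM in F4/80hi libraries (log2 fold -2.60, SE 0.24, adjusted p = 1.95e-07). Pla2g15, the lysosomal phospholipase A2, was at 70.0 ± 21.5 and 373 ± 27.4 CPM (log2 fold -2.33, SE 0.31, adjusted p = 2.31e-05). Agmo, an enzyme that cleaves ether lipids, was at 2.30 ± 1.16 and 49.0 ± 7.28 CPM (log2 fold -4.64, SE 1.11, adjusted p = 0.00654). Csf1r was transcribed in both populations, at 1150, 1650, 1060, 995 and 1300 CPM in CD11bhi and 4230, 4260 and 4440 CPM in F4/80hi libraries. The lowest F4/80hi value was above the highest CD11bhi one by more than a factor of 2 (log2 fold -1.57, SE 0.39, adjusted p = 0.00836). Of 14 tested genes known from microglia, the macrophages of the brain, 5 were lower and 1 higher, and the 8 libraries alone called 10 lower and 1 higher. P2ry12, an ADP receptor, was at 11.1 ± 4.44 and 56.1 ± 2.21 CPM (log2 fold -2.54, SE 0.46, adjusted p = 0.000625). The member that was higher was Siglech, a lectin shared with plasmacytoid dendritic cells, at 24.9 ± 4.13 and 10.1 ± 2.88 CPM.

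Several defining macrophage genes stood far apart in level and were still not called with the prefix term. C1qa, which encodes a chain of complement C1q, was at 840, 843, 535, 287 and 566 CPM in CD11bhi and 5960, 5840 and 5300 CPM in F4/80hi libraries. Its groups did not overlap, yet the log2 fold was -0.56 with the prefix term (SE 0.80, adjusted p = 0.682) and -3.22 in the 8 libraries alone, where it was called. In the dendritic cells that set the prefix term, C1qa was at 0.33 to 5.3 CPM in BS and 4.85 to 39.5 CPM in GS libraries. C1qb (1400 ± 401 and 8110 ± 1030 CPM) and C1qc (729 ± 226 and 6360 ± 950 CPM) had log2 folds of -0.56 and -0.45 with the term and -2.54 and -3.13 without it. The C1q genes lie side by side on chromosome 4, from 136880129 to 136898803. Mertk, a receptor for apoptotic cells, was at 0.333 to 1.73 CPM in 4 CD11bhi libraries, 0 in replicate 5, and 17.5, 23.8 and 21.0 CPM in F4/80hi libraries; its log2 fold was -0.05 with the term and -4.66 in the 8 libraries alone (adjusted p = 0.000419). In dendritic cells Mertk was at 0 in every BS library and at most 0.436 CPM in GS libraries. For Fcgr1 the term turned the sign, from -1.37 in the 8 libraries, where it was called, to 0.44 without a call. It was at 0.348 to 6.99 CPM in BS and 1.21 to 29.3 CPM in GS dendritic cells. For these genes the choice of fit decides the call, and prefix and population cannot be told apart from the 8 libraries.

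**Figure D3:**
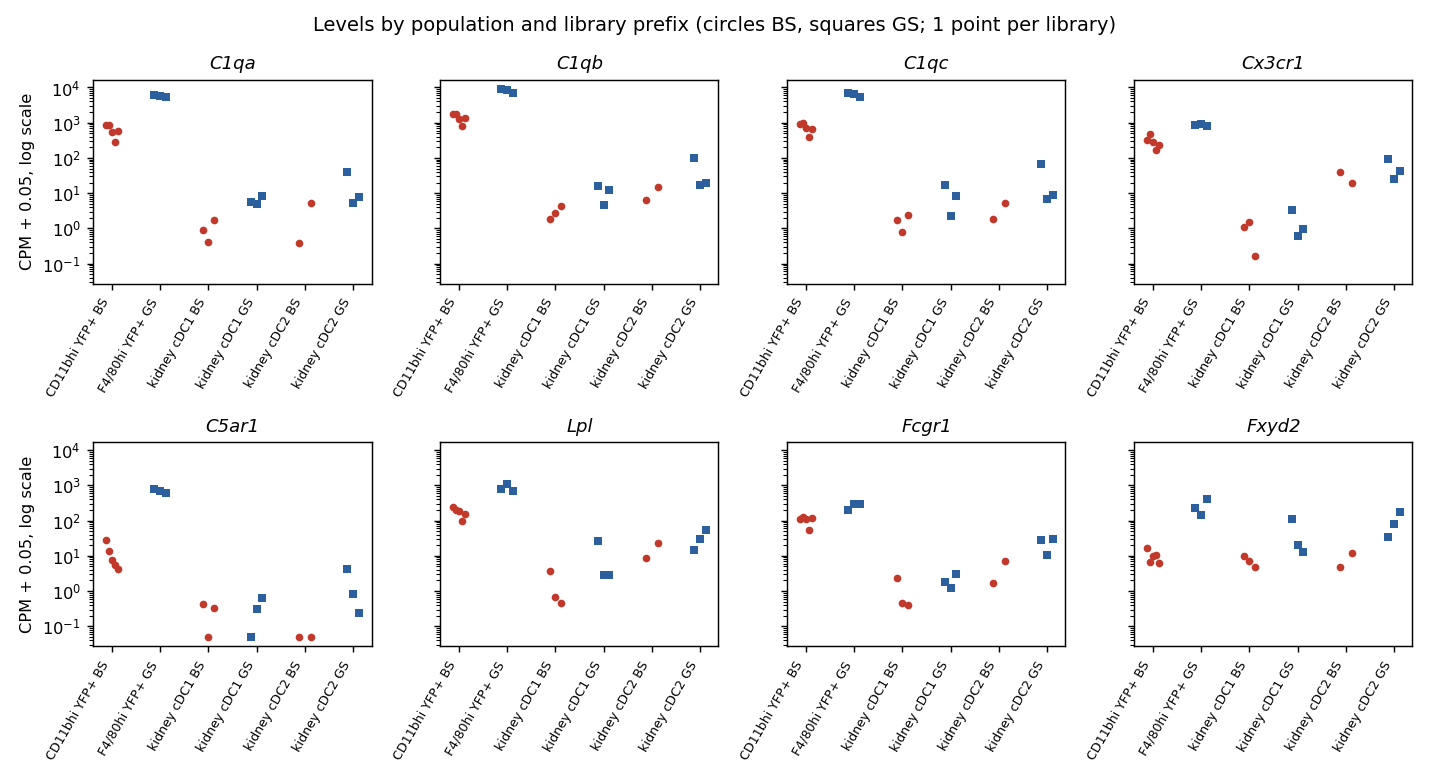
CPM + 0.05 (vertical, log scale) of 8 genes that are lower in CD11bhi cells in the 8 libraries alone and not called with the prefix term; points are libraries, split by population and prefix (red circles BS, blue squares GS). Dendritic cell libraries of C1qa, with the GS ones up to 39.5 CPM, lie far below the 287 to 843 CPM of CD11bhi and the 5300 to 5960 CPM of F4/80hi cells.

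Over all genes, 570 were lower in the 8 libraries alone and not called with the prefix term, with a median log2 fold of -3.02 in the 8 libraries. Their median prefix fold in dendritic cells was -0.88, BS over GS, and in 314 of them every dendritic cell library lay below every F4/80hi library. The 407 genes called lower by both fits had a median log2 fold of -1.79 in the 8 libraries and a median prefix fold of 0.18. In 342 of these 407, too, every dendritic cell library lay below every F4/80hi library. In the higher direction, 233 genes were called in the 8 libraries alone and 375 with the prefix term alone. The term also enlarged folds. Where tested in the 8 libraries, these 375 genes had a median log2 fold of 0.71 there, and their median prefix fold was -0.58. A further 208 genes were called lower with the prefix term alone, with medians of -0.71 and 0.55. The prefix itself was called for 13 genes higher (0.0988%) and 8 lower (0.0608%) in BS libraries, which is 0.16% in either direction. The 11 dendritic cell libraries alone gave 0 and 0, and all 33 libraries gave 44 and 126. Far more genes had an unadjusted edgeR p under 0.05 for the prefix, 3329 of 13161 in the main fit and 2579 of 11662 in the 11 libraries. Among the genes called, Casc5, a kinetochore scaffold gene, was at 14.6 to 55.4 CPM in BS and 10.4 to 22.9 CPM in GS dendritic cells, and Fxyd2, a sodium pump subunit of kidney tubules, at 4.67 to 12 and 12.6 to 173 CPM. In the 11 libraries alone neither was called (edgeR adjusted p = 0.12 and 0.146). No gene was called for a prefix effect that differed between cDC1 and cDC2 by edgeR; 374 of 11662 genes had an unadjusted p under 0.05.

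**Figure D4:**
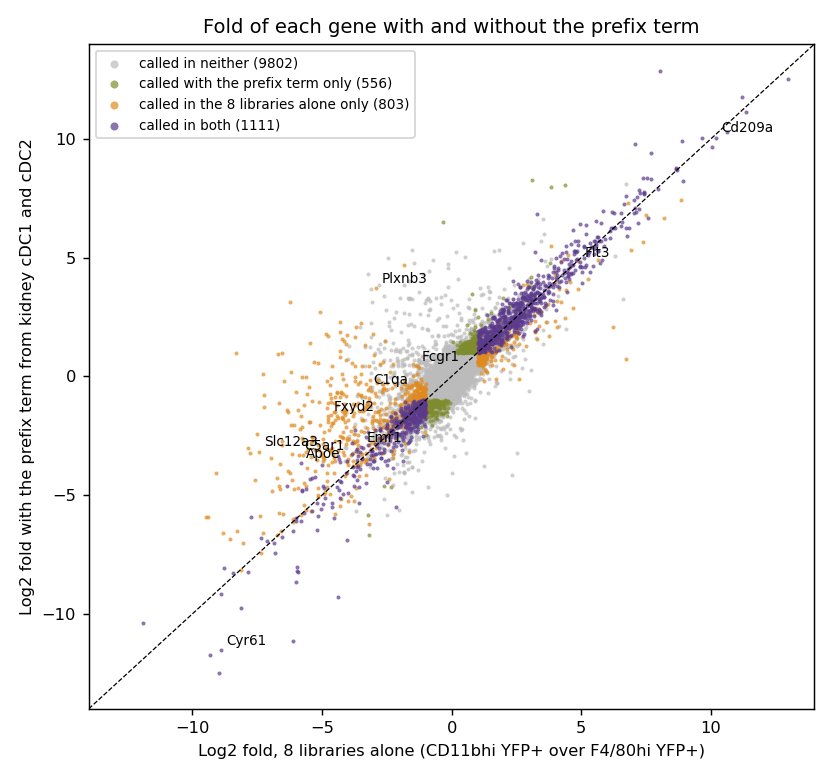
Log2 fold of each gene, CD11bhi YFP+ over F4/80hi YFP+, in the 8 libraries alone (horizontal) and with the prefix term (vertical); colours show in which fit a gene is called and the dashed line marks equal folds. Cd209a, Flt3 and Emr1 lie near the line, while C1qa, Fcgr1 and C5ar1 lie above it, with smaller or opposite folds under the prefix term.

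Complement components, the C1q genes among them, gave 1 of 10 tested higher and 2 lower, and 3 and 6 in the 8 libraries alone. Cfp, which encodes properdin, the stabiliser of the alternative pathway convertase, was at 387, 299, 461, 395 and 484 CPM in CD11bhi and 66.2, 24.6 and 37.5 CPM in F4/80hi libraries (log2 fold 3.53, SE 0.40, adjusted p = 3.5e-06). The groups did not overlap, and both fits called it. C2, a protease of the classical pathway, was at 0 to 1.18 and 17.4 to 48.7 CPM (log2 fold -8.68, SE 1.48, and -6.01 in the 8 libraries alone). The summed level of the list, in which the C1q genes were counted, was 2070 to 4270 CPM in CD11bhi and 18100 to 22600 CPM in F4/80hi libraries. Of 10 tested complement receptors and regulators, 0 were higher and 3 lower, and 1 and 5 in the 8 libraries alone. C5ar2, a receptor for C5a, was at 0.541 ± 0.748 and 29.5 ± 2.36 CPM (log2 fold -6.09, SE 1.80, adjusted p = 0.0245). The main C5a receptor gene C5ar1 was at 27.3, 13.9, 7.46, 5.54 and 4.09 CPM against 787, 678 and 604 CPM, with a log2 fold of -3.31 that was not called (SE 1.68, adjusted p = 0.186) and -5.88 in the 8 libraries, where it was.

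Receptors for apoptotic cells and other scavenger receptors gave 2 higher and 7 lower of 20 (median log2 fold -0.86). Cd163, the haptoglobin-haemoglobin scavenger receptor widely used as a macrophage marker, was higher in CD11bhi cells. It was at 85.9, 107, 105, 106 and 72.6 CPM against 0.961, 2.68 and 1.91 CPM, with all CD11bhi libraries far above (log2 fold 5.26, SE 0.70, adjusted p = 2.38e-05). Kidney cDC2 had Cd163 at similar means, 126 CPM in BS and 114 CPM in GS libraries, and cDC1 at 2.56 and 1.57 CPM. Cd36, a receptor for oxidised lipoproteins and fatty acids, was at 83.4, 59.6, 72.1, 37 and 57.7 CPM against 300, 707 and 389 CPM, again without overlap but in the opposite direction (log2 fold -3.27, SE 0.42, adjusted p = 1.4e-05). Itgav, the integrin alpha v subunit that binds apoptotic cells through a bridging protein, was at 42.9 ± 16 and 135 ± 27.2 CPM (log2 fold -2.18, SE 0.38, adjusted p = 0.000513). Of 9 tested Fc receptor genes, 2 were lower. Fcgr4, an activating receptor for IgG, was at 177 ± 25.9 and 611 ± 31.4 CPM (log2 fold -1.53, SE 0.30, adjusted p = 0.00153), while the inhibitory receptor gene Fcgr2b was at 872 ± 107 and 778 ± 39.9 CPM with no call.

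Of 32 tested lysosomal genes, 0 were higher and 12 lower in CD11bhi cells (median log2 fold -0.72), and 18 were lower in the 8 libraries alone. In 25 of the 32 every CD11bhi library lay below every F4/80hi library, as in 16.1% of all genes. Cd63, a membrane protein of late endosomes, was at 4.11, 2.04, 4.75, 2.55 and 3.33 CPM in CD11bhi and 104, 192 and 149 CPM in F4/80hi libraries (log2 fold -4.31, SE 0.53, adjusted p = 8.97e-06). Ctsf and Ctsl, cysteine cathepsins, were at 2.70 ± 1.42 and 19.2 ± 5.84 CPM against 83.8 ± 17.1 and 110 ± 13.3 CPM. Lamp2, a structural membrane protein of lysosomes, was at 337 ± 28.4 and 1010 ± 44.9 CPM (log2 fold -1.79, SE 0.22, adjusted p = 9.91e-06). Ctss, the cathepsin that trims the invariant chain, was at 2750 ± 206 and 5670 ± 1060 CPM and its log2 fold of -0.68 was below the threshold (adjusted p = 0.0421); the 8 libraries alone called it, at -1.05. The promoter motif of the lysosomal regulator Tfeb, with the core TCACGTGA, was found in 3 of 24 list members with a promoter in the RefSeq table and in 0 of the 9 called ones, against 1.01% of 27025 promoters.

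**Figure D5:**
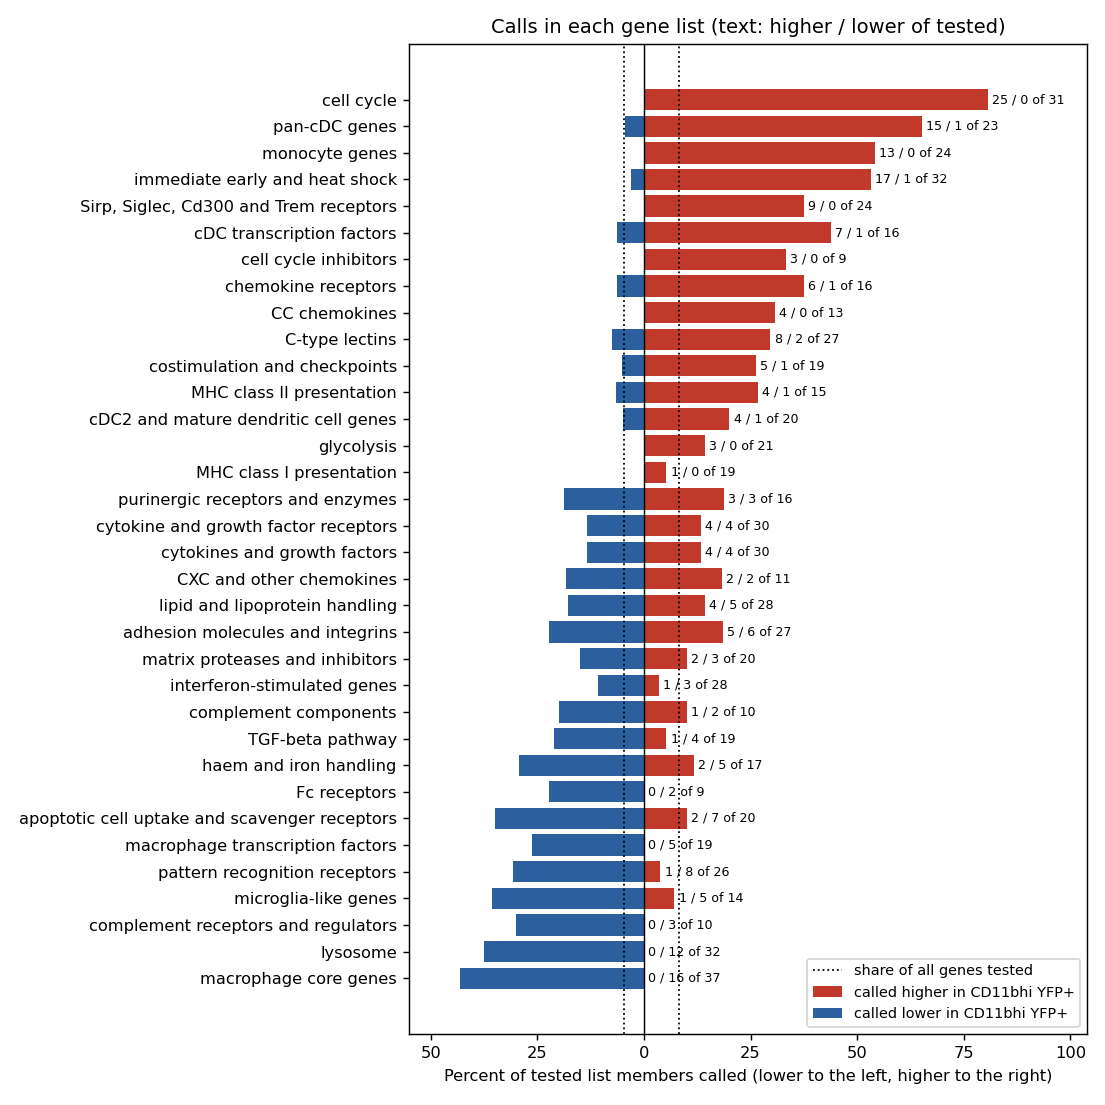
Percent of the tested members of each gene list, other than the sort panel and the markers of other cells, called lower (blue, to the left) or higher (red, to the right) in CD11bhi YFP+ cells, with counts beside the bars; dotted lines mark the shares over all genes, 4.67% lower and 8.2% higher. Cell cycle genes (25 of 31) and pan-cDC genes (15 of 23) reach farthest to the right, and macrophage core (16 of 37) and lysosome genes (12 of 32) far to the left.

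Of 28 tested genes of lipid handling, 4 were higher and 5 lower, and 4 and 9 in the 8 libraries alone. Enzymes of the prostaglandin pathway were called on both sides. Ptgs2, the inducible cyclooxygenase that makes prostaglandin H2, was at 129, 223, 232, 371 and 257 CPM in CD11bhi and 14.6, 17.1 and 11.2 CPM in F4/80hi libraries (log2 fold 4.28, SE 0.76, adjusted p = 0.000562). Hpgds, the haematopoietic prostaglandin D2 synthase, was at 17.8, 23, 18, 16.6 and 19.9 CPM against 160, 193 and 141 CPM (log2 fold -3.33, SE 0.28, adjusted p = 7.41e-08). The libraries overlapped for neither gene. Abca1, the cholesterol exporter, was at 6.60 ± 2.73 and 51.2 ± 19 CPM (log2 fold -2.85, SE 0.73, adjusted p = 0.0149), a call that ended without F4/80hi replicate 2 (-2.60). Apoe, which encodes apolipoprotein E, was at 493, 349, 208, 31.8 and 32.6 CPM against 13600, 11900 and 12000 CPM (log2 fold -3.66, SE 1.18, adjusted p = 0.0382). Its call ended when any 1 of the 3 F4/80hi libraries, or of CD11bhi replicates 3 to 5, was left out (-3.38 to -3.69). Over the main fit and the 20 alternatives the log2 fold of Apoe ran from -5.82 to -2.60. In haem and iron handling, 2 of 17 tested genes were higher and 5 lower, and 1 and 8 in the 8 libraries alone. Cp, the ferroxidase ceruloplasmin, was at 1.23 ± 0.760 and 16.3 ± 10.3 CPM (log2 fold -4.19, SE 1.02, adjusted p = 0.00741), and the ferritin gene Fth1 was not called, at 7120 ± 282 and 8120 ± 2320 CPM.

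Chemokine receptors gave 6 higher and 1 lower of 16 (median log2 fold 1.35), and 6 and 3 in the 8 libraries alone. Ccrl2, a scavenging receptor that presents chemerin, was at 355, 526, 503, 629 and 623 CPM in CD11bhi and 124, 174 and 116 CPM in F4/80hi libraries (log2 fold 2.49, SE 0.38, adjusted p = 0.000117). Outside this list, Ltb4r1, the receptor for the lipid attractant leukotriene B4, was named for the size of its fold. It was at 195 ± 28.3 and 3.31 ± 0.674 CPM (log2 fold 6.96, SE 0.48, adjusted p = 5.54e-09). Of 13 tested CC chemokines, 4 were higher and 0 lower, and Ccl4, which attracts T cells and monocytes, was not called at 740 ± 165 and 1460 ± 419 CPM. The higher ones included the Ccr4 ligands Ccl17 and Ccl22 and Ccl9, a macrophage inflammatory protein of mice, at 501 ± 41.6 and 205 ± 72.5 CPM (log2 fold 2.09, SE 0.33, adjusted p = 0.000157). Of 11 CXC and other chemokines, 2 were higher and 2 lower, and 2 and 5 in the 8 libraries alone. The neutrophil attractant gene Cxcl1 was at 0.0973 ± 0.218 and 13 ± 0.303 CPM, and its call ended without any 1 of the F4/80hi libraries (log2 fold -7.44, and -7.46 to -7.48 without 1). Cxcl9, an interferon-gamma-induced attractant of T cells, was at 154 ± 43.6 and 46.0 ± 5.17 CPM (log2 fold 1.06, SE 0.27, adjusted p = 0.0105), a call that ended without F4/80hi replicate 2 (0.98) or CD11bhi replicate 3 (0.92) or 4 (0.97).

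Cytokine genes gave 4 higher and 4 lower of 30, and their receptors also 4 and 4 of 30, against 8.2% and 4.67% of all genes. The 8 libraries alone gave 4 and 9 for the cytokines and 3 and 5 for the receptors. Of the 4 cytokine genes higher with the prefix term, 2 were also called higher in the 8 libraries alone. Lif was among the higher ones (log2 fold 3.22), and its call ended in 8 of 20 alternatives. Pdgfa, which encodes a growth factor for mesenchymal cells, was at 1.51, 1.71, 1.6, 1.44 and 1.97 CPM in CD11bhi and 14.8, 15.9 and 15.2 CPM in F4/80hi libraries, with little spread within either group (log2 fold -2.36, SE 0.44, adjusted p = 0.00101). Tnfsf13b, which encodes the B cell survival factor BAFF, was at 45.7 ± 4.76 and 201 ± 96.3 CPM (log2 fold -1.92, SE 0.32, adjusted p = 0.00032). Hgf, a growth factor for epithelial cells, was at 3.61 ± 2.38 and 13.1 ± 2.01 CPM (log2 fold -3.58, SE 0.87, adjusted p = 0.0112). Over the main fit and the 20 alternatives the log2 fold of Hgf ran from -4.02 to -1.85. Among receptors, Il17ra, the shared receptor chain for interleukin 17, was at 107, 144, 143, 170 and 148 CPM against 4.29, 4.42 and 4.78 CPM (log2 fold 4.60, SE 0.33, adjusted p = 1.06e-08). Il7r was at 11.2 ± 5.62 and 0.815 ± 0.482 CPM. The erythropoietin receptor gene Epor had no read in any CD11bhi library and 14.5, 45.1 and 35.6 CPM in F4/80hi libraries, at least 846-fold lower by 3 counts over the CD11bhi group; its call ended with DESeq2 and with the prefix term taken from cDC2 alone.

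The TGF-beta pathway gave 1 higher and 4 lower of 19, and 1 and 6 in the 8 libraries alone. The genes of both signalling receptor chains were lower. Tgfbr2, the ligand-binding chain, was at 160, 195, 131, 176 and 133 CPM in CD11bhi and 598, 571 and 757 CPM in F4/80hi libraries (log2 fold -2.41, SE 0.28, adjusted p = 4.74e-06). Tgfbr1, its signalling partner, was at 166 ± 82.7 and 1170 ± 310 CPM (log2 fold -3.02). Smad3, a signal transducer of the pathway, was at 17.1 ± 3.89 and 43.4 ± 10.2 CPM (log2 fold -2.07, SE 0.52, adjusted p = 0.00867). The 1 higher gene was Smad7, an inhibitor of the pathway, at 24.4, 39.6, 24.4, 44.7 and 30.4 CPM against 9.98, 7.43 and 9.77 CPM (log2 fold 2.14, SE 0.30, adjusted p = 4.12e-05). The ligand gene Tgfb1 was not called, at 153 ± 13.5 and 210 ± 34.4 CPM.

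Pattern recognition receptors gave 1 higher and 8 lower of 26 (median log2 fold -0.86). Tlr11 and Tlr12, which in mice recognise profilin of protozoa, were called in opposite directions. Tlr11 was at 89.8, 66.9, 81.1, 52.2 and 74.8 CPM in CD11bhi and 4.58, 7.3 and 5.67 CPM in F4/80hi libraries (log2 fold 2.99, SE 0.35, adjusted p = 5.7e-06). Tlr12 was at 7.41, 9.41, 5.43, 3.33 and 8.02 CPM against 40.6, 99.9 and 118 CPM (log2 fold -3.97, SE 0.66, adjusted p = 0.000298). Neither gene's libraries overlapped. Tlr13, a sensor of bacterial ribosomal RNA in mice, was at 68.5 ± 6.11 and 203 ± 27.8 CPM (log2 fold -2.18, SE 0.39, adjusted p = 0.000558). Tlr3, a sensor of double-stranded RNA, was at 15.3 ± 6.54 and 38 ± 8.67 CPM (log2 fold -2.34, SE 0.41, adjusted p = 0.00044). Over the main fit and the 20 alternatives the log2 fold of Tlr3 ran from -2.68 to -1.32. Tlr2 was not called, at 361 ± 62.8 and 481 ± 50.4 CPM.

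Adhesion molecules gave 5 higher and 6 lower of 27. Itgb7, the beta chain of the gut-homing and E-cadherin-binding integrins, was at 1000, 908, 1150, 1050 and 1110 CPM in CD11bhi and 100, 62.9 and 49.9 CPM in F4/80hi libraries (log2 fold 4.13, SE 0.30, adjusted p = 1.06e-08). Vcam1, the ligand of integrin alpha 4 beta 1, was at 1.92 ± 2.16 and 182 ± 131 CPM (log2 fold -6.77). Itgb2, the beta chain that pairs with CD11b and CD11c, was at 597 ± 45.4 and 549 ± 114 CPM and was not called. Among 20 matrix proteases and inhibitors, 2 were higher and 3 lower, and 2 and 6 in the 8 libraries alone. Adam8, a membrane protease of leukocytes, was at 62.7 ± 17.1 and 1.88 ± 0.941 CPM (log2 fold 4.62, SE 0.41, adjusted p = 1.52e-07), and Timp2, a metalloproteinase inhibitor, at 123 ± 24.6 and 565 ± 49.2 CPM (log2 fold -1.84, SE 0.23, adjusted p = 1.36e-05). Of 16 purinergic genes, 3 were higher and 3 lower, and 4 and 5 in the 8 libraries alone. The adenosine receptor genes Adora2a (10.5 ± 7.15 and 0.146 ± 0.197 CPM) and Adora2b (15.2 ± 6.43 and 1.53 ± 1.87 CPM) were among the higher ones, and the ATP-gated channel gene P2rx7 among the lower ones (79.0 ± 9.33 and 170 ± 25.4 CPM, log2 fold -1.28). In the Sirp, Siglec, Cd300 and Trem families, 9 of 24 were higher and 0 lower with the prefix term, while the 8 libraries alone gave 7 higher and 3 lower and the fit blocked by sort code 6 higher and 0 lower. Siglecg, an inhibitory sialic acid receptor, was at 94.5 ± 23.4 and 0.365 ± 0.202 CPM, and Cd300lg, a lipid-binding receptor, at 79.7 ± 9.74 and 2.31 ± 2.49 CPM (log2 fold 5.48, SE 0.71, adjusted p = 1.71e-05).

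Of 31 tested cell cycle genes, 25 were higher and 0 lower in CD11bhi cells, with a median log2 fold of 2.11. In 29 every CD11bhi library lay above every F4/80hi library, as in 14.6% of all genes. Aurkb, a mitotic kinase of the chromosomal passenger complex, was at 85.7, 71.8, 80.7, 86.2 and 78.2 CPM in CD11bhi and 7.17, 5.76 and 14.8 CPM in F4/80hi libraries (log2 fold 3.20, SE 0.33, adjusted p = 1.41e-06). Ube2c, the ubiquitin-conjugating enzyme of the anaphase-promoting complex, was at 69.2, 54.5, 77.9, 63.3 and 57.5 CPM against 3.03, 1.81 and 9.77 CPM (log2 fold 4.25, SE 0.63, adjusted p = 8.99e-05). Cdk1, the kinase that drives entry into mitosis, was at 47.1 ± 3.68 and 8.13 ± 4.49 CPM (log2 fold 3.02, SE 0.48, adjusted p = 0.000164). Plk1, a mitotic kinase, was at 19 ± 2.70 and 2.36 ± 2.63 CPM (log2 fold 3.01, SE 0.59, adjusted p = 0.00135). For Aurkb, Ube2c and Plk1 replicate 3 was the highest of the F4/80hi libraries. Mki67, the source of the Ki-67 antigen, was at 85.0 ± 15.3 and 17.2 ± 14.7 CPM and was not called with the prefix term (log2 fold 1.33, adjusted p = 0.0605), but was called in the 8 libraries alone at 2.28 and without F4/80hi replicate 3 at 2.30. Of 9 cell cycle inhibitor genes, 3 were higher too, among them Cdkn2d at 78.2 ± 19.3 and 17.2 ± 2.36 CPM (log2 fold 2.76, SE 0.35, adjusted p = 1.18e-05).

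Many mitotic genes carry a cell cycle homology region (CHR) and CCAAT boxes close to their start, elements that repress or activate them with the phase of the cycle. Promoters of 3 called genes that hold both motifs are shown because many members of this list were called in 1 direction; that of Birc5, another called member, holds neither. Each runs from 250 bases before to 50 bases after the start, 5′ to 3′ on the gene's strand, from RefSeq (GRCm38.p6). Capitals mark TTTGAA or its reverse complement TTCAAA, and CCAAT or its reverse complement ATTGG.
Ube2c, chr2:164769679-164769978, plus strand: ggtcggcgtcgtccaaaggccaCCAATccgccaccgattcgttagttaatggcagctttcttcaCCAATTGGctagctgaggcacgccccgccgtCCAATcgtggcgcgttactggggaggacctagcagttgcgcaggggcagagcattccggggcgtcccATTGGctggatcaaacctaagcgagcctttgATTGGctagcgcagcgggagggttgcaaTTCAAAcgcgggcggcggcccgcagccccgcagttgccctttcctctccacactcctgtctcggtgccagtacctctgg
Cdk1, chr10:69352863-69353162, minus strand: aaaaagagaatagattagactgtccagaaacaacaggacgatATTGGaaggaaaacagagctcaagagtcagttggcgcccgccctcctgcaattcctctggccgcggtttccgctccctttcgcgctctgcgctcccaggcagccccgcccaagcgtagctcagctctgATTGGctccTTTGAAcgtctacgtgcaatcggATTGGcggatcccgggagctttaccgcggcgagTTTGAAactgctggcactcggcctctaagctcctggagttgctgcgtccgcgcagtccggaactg
Plk1, chr7:122159185-122159484, plus strand: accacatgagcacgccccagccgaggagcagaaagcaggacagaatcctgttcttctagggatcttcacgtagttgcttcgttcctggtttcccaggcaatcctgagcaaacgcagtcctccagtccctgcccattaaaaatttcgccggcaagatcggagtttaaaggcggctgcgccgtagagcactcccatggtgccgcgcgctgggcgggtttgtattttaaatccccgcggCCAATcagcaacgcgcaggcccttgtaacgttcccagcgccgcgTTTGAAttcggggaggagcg
Ube2c holds its CHR letters 29 bases before the start with 6 CCAAT matches, 2 of them overlapping as CCAATTGG. Cdk1 holds 2 CHR matches, the nearer one 15 bases before the start. The only CHR match of Plk1 lies after its start. The letters TTTGAA were searched on both strands in the 27 of 31 tested members with a promoter in the table. They were in 13 of them (48.1%), in 11 of the 22 called members (50%) and in 18.1% of all 27025 promoters. CCAAT was in 22 of the 27 (81.5%) and in 37.9% of all. Both motifs were in 13 members (48.1%) and in 7.12% of all. A match describes the letters in this window and is not a site of binding.

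Immediate early genes, which cells switch on within minutes of a stimulus, and heat shock genes gave 17 higher and 1 lower of 32 (median log2 fold 1.52). Nr4a1, an orphan nuclear receptor, was at 753, 1460, 1130, 2150 and 1990 CPM in CD11bhi and 81.5, 77.5 and 60.9 CPM in F4/80hi libraries (log2 fold 4.95, SE 0.50, adjusted p = 8.18e-07). Atf3, a stress-induced repressor, was at 1040, 2090, 1700, 2400 and 2030 CPM against 598, 469 and 208 CPM (log2 fold 3.21, SE 0.54, adjusted p = 0.000349). CD11bhi libraries spread over more than a factor of 2 for both genes and still lay above all F4/80hi libraries. Fosl2, a subunit of the AP-1 factor, was at 73.9 ± 22.5 and 4.36 ± 1.10 CPM (log2 fold 4.12, SE 0.42, adjusted p = 1.03e-06). Fos and the heat shock gene Hspa1b were not called, at 3750 ± 1310 and 1840 ± 775 CPM and at 3740 ± 840 and 2860 ± 419 CPM. Kidney dendritic cells spanned a wide range of these genes, with Nr4a1 from 166 to 4530 CPM in BS and 340 to 4670 CPM in GS libraries.

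Interferon-stimulated genes gave 1 higher and 3 lower of 28, and all but Ifi204 of the called ones were not called in the 8 libraries alone. Isg15, a ubiquitin-like protein, was at 57.0 ± 11.8 and 31.6 ± 9.21 CPM (log2 fold 1.32, adjusted p = 0.00447), and Ifi204, a DNA sensor of mice, at 68.2 ± 10.0 and 152 ± 21.2 CPM (log2 fold -1.47, adjusted p = 0.0261). The call of Ifi204 ended without F4/80hi replicate 2 (-1.39) or 3 (-1.43). Of 21 glycolytic genes, 3 were higher and 0 lower, and 2 and 1 in the 8 libraries alone. Aldoc, an aldolase, was at 36.2, 31.2, 39, 30.7 and 44 CPM against 7.46, 3.08 and 4.37 CPM (log2 fold 3.20, SE 0.31, adjusted p = 5.89e-07), while Aldoa, its paralog, was not called, at 377 ± 38.7 and 460 ± 147 CPM.

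Markers of other cell types were counted in the same libraries. Kidney tubule genes summed to 111 to 208 CPM in CD11bhi and 400 to 1720 CPM in F4/80hi libraries; 0 of 14 were called with the prefix term and 8 were lower in the 8 libraries alone. In dendritic cells the same sum was 111 to 245 CPM in BS and 181 to 1270 CPM in GS libraries, so the highest sums were in GS libraries there too. T and NK cell genes summed to 206 to 293 and 50.1 to 148 CPM, with 3 of 16 higher and 1 lower, and 7 and 1 in the 8 libraries alone. Klrd1, an NK cell receptor that dendritic cells also transcribe, was at 157 ± 30.3 and 0.760 ± 0.566 CPM and the T cell receptor component Cd3e at 13.8 ± 4.35 and 1.28 ± 0.814 CPM. B cell genes summed to 43.2 to 57.7 and 122 to 160 CPM, led by Cd79b, with 0 of 8 called and 1 lower in the 8 libraries alone. Neutrophil genes summed to 13.4 to 20.7 and 74.6 to 105 CPM, led by Csf3r, which macrophages also express, and Camp and Ngp were at 0 in all 8 libraries. Of 3 tested neutrophil genes 0 were called, and the 8 libraries alone gave 1 higher and 1 lower. cDC1 genes summed to 789 to 962 and 1670 to 2030 CPM, with 2 of 12 higher and 3 lower. Cadm1, an adhesion molecule of cDC1, was lower, at 205, 180, 193, 110 and 192 CPM against 891, 970 and 738 CPM (log2 fold -2.34, SE 0.24, adjusted p = 1.27e-06). Plasmacytoid dendritic cell genes summed to 288 to 315 and 470 to 833 CPM, with 3 of 12 higher and 0 lower. Their sum thus went the opposite way to these calls, and the 8 libraries alone gave 3 higher and 2 lower. Endothelial genes summed to 81.1 to 95.8 and 83.9 to 160 CPM, with 2 of 14 higher and 1 lower. Fibroblast genes (3.08 to 13.2 and 4.35 to 11.5 CPM) and mast cell and basophil genes (0.487 to 1.88 and 0.134 to 1.03 CPM) were near the floor. Erythroid and platelet genes summed to 0.656 to 4.87 and 26.3 to 210 CPM, led by the platelet factor gene Pf4 (1.57 ± 1.29 and 120 ± 89.3 CPM), while the globin genes Hba-a1 and Hbb-bs were at 0. Of 3 tested members 0 were called, and 1 was lower in the 8 libraries alone. The part of these cells in the differences above was not tested.

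The same pair of gates was sorted from YFP- cells, in 2 CD11bhi and 3 F4/80hi libraries with the same prefixes, so the prefix cancels where the differences are set against each other. In the YFP- pair, 9.16% of genes were higher and 8.56% lower in CD11bhi cells. The difference itself was tested as an interaction, and 97 of 13863 genes (0.7%) had a larger and 3 (0.0216%) a smaller log2 fold of CD11bhi over F4/80hi in YFP+ than in YFP- cells, which is 0.721% in either direction. The 2 CD11bhi YFP- libraries had 9735 and 10482 genes at 1 CPM or more, against 11039 to 11799 in the other 11 libraries of the 4 groups, and 82 of the 97 genes had a mean under 1 CPM in CD11bhi YFP- cells, 18 of them with no read. The part of this gap in the interaction was not tested. YFP+ and YFP- libraries share sort codes, 3 among F4/80hi and 2 among CD11bhi libraries, and entered this fit as independent. With a block by sort code, chosen after seeing the data, the counts were 40 and 1, and 37 of the 97 genes were called again. Ahnak, a very large scaffold protein gene, was at 315, 458, 310, 454 and 271 CPM in CD11bhi YFP+, 28.1, 12.2 and 24.3 CPM in F4/80hi YFP+, 429 and 401 CPM in CD11bhi YFP-, and 8.99, 6.91 and 6.79 CPM in F4/80hi YFP- libraries, all without TMM scaling. It was higher in CD11bhi cells of both kinds, and the fold was smaller among YFP+ cells by 1.78 on the log2 scale (SE 0.42, adjusted p = 0.0487), a call that ended with the block (edgeR adjusted p = 0.0535). Uhrf1bp1l, a lipid transfer protein gene, was at 95.8 and 63.6 CPM in CD11bhi YFP- libraries and between 27.2 and 40.4 CPM in the other libraries of the 4 groups (interaction -1.49, SE 0.27, adjusted p = 0.00821). Of the 97 genes, the one with the largest interaction and at least 10 CPM in a group was Krt7, a keratin, with no read in either CD11bhi YFP- library and a mean of 11.1 CPM in F4/80hi YFP- cells. The counts depend on the CD11bhi YFP- libraries, of which there are 2: without replicate 1 they were 223 and 10, and without replicate 2 they were 1489 and 248.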

How the data were processed

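The authors aligned reads to mm10 with STAR and quantified genes with RSEM, per the submitters' processing notes; versions are not given in the sources used here. Per the labels' protocols, RNA was isolated with PicoPure, amplified from polyA RNA with SMARTseq v4 and made into libraries with MicroPlex, which keeps no strand, so overlapping and antisense genes cannot be told apart. Read counts per gene were deposited by the authors from STAR for 24054 gene symbols per library, and the unstranded column was used. Expected counts and TPM values were deposited by the authors from RSEM and entered only as alternatives (expected counts rounded to whole numbers; limma on log2 of TPM + 1). FPKM values, deposited by the authors from the same RSEM runs, were not used.

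Genes with enough reads were kept (filterByExpr, minimum count 10, minimum total 15), libraries were scaled by TMM, and edgeR 4.0.16 in R 4.3.3 was fitted to 19 libraries with a term per population and a term for the name prefix (14 residual degrees of freedom; 6 in the fit of 8 libraries). Adjustment was over all 13161 genes tested. Alternatives used limma 3.58.1, DESeq2 1.42.0, RLE scaling, no filter, other sets of libraries, a block by sort code and each library left out. The scripts were tested on simulated data. A group with no read got a bound from 3 counts over that group, which covers counting error only.

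The members and the 45 gene lists were chosen with earlier results of these data known; 903 of 909 list entries matched a symbol. Named genes are the sort panel, the 15 with the largest fold in each direction called by both fits (at least 10 CPM, no overlap between groups), up to 5 called and 2 uncalled members of each list, the largest for the prefix and the YFP comparison, and marker genes of the cell types; of these the text gives a selection, and a few are not reported here. Sensitivity counts leave out the genes named for the YFP comparison alone. H2-DMb1 was named after values were seen. Gene positions are from GENCODE on GRCm38. The 5 CD11bhi and 3 F4/80hi libraries came from 8 sort codes, none shared among them. Each of these codes also holds kidney cDC1 or cDC2 libraries, and libraries of a code entered the main fit as independent. All BS libraries have sort codes that begin with SR18, and all GS libraries codes that begin with SR17. Replicates are numbered in deposit order.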

Additional observations from a re-analysis of the deposited data

Results flagged for a closer look

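A library lay far from the others of its group in 23 of the 253 named genes and in 1 quality measure; chance flags about 1 in 20 groups. The values are TMM-scaled CPM in CD11bhi YFP+ libraries, and the range of the other 4 libraries stands in brackets. Replicate 4 had 45.85% of its reads unmapped (2.346 to 2.796), and in several genes it was the far library. It was the lowest for Fcgr1 at 55.7 (112 to 125), Ifi204 at 50.3 (71.7 to 73.4), Cd79b at 19.7 (33.3 to 35.0) and Cadm1 at 110 (180 to 205). It was the highest for Btla at 98.8 (61.7 to 71.5), Pvr at 31.8 (17.2 to 21.4), Lif at 28.5 (3.08 to 10.1), Adora2a at 23.2 (6.54 to 8.93), Vwf at 27.5 (13.3 to 14.3), Klk1 at 50.1 (2.63 to 15) and Cpne8 at 0.554 (0 to 0.132). Replicate 2 was the highest for Itga9 at 93.0 (32.5 to 39.1), Syne2 at 80.2 (46.4 to 50.2), Gbp5 at 18.9 (10.4 to 12.2), C5ar2 at 1.84 (0 to 0.443) and Cyr61 at 1.78 (0 to 0.443). Replicate 1 was the highest for Cxcl14 at 4.27 (0.222 to 1.23), Clec9a at 0.649 (0 to 0.0617) and Cxcl1 at 0.487 (0 in the others). Replicate 3 was the highest for Ccl22 at 142 (52.2 to 67.6), Slc12a3 at 3.27 (0 to 0.922) and Spic at 0.37 (0 in the others), and replicate 5 for Irf5 at 852 (621 to 676).

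The difference between CD11bhi and F4/80hi cells differed between YFP+ and YFP- cells for 97 and 3 genes, by a test of the interaction with edgeR. The values here are for the 8 named by the size of the interaction and for Tlr12, the one other named gene called. The interaction, on the log2 scale, was 9.53 for Krt7 (SE 1.60, adjusted p = 0.00545), 9.42 for Slc25a15 (adjusted p = 0.00597) and 8.99 for Marveld2 (adjusted p = 0.0215), which had no read in either CD11bhi YFP- library. It was 5.97 for Nars2 (adjusted p = 0.00089) and 5.9 for Ccdc126 (adjusted p = 0.00275), with means of 0.183 and 0.0913 CPM in CD11bhi YFP- cells. It was -2.42 for Zfp329 (adjusted p = 0.0167), -1.78 for Ahnak and -1.49 for Uhrf1bp1l. For Tlr12 it was 5.08 (SE 1.20, adjusted p = 0.0479). With a block by sort code the calls of Marveld2, Zfp329, Ahnak and Tlr12 ended (edgeR adjusted p = 0.0937, 0.0572, 0.0535 and 0.119).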

How the results depend on the processing

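The main counts of 1079 higher and 615 lower genes became 937 and 838 without the prefix term, 937 and 977 in the 8 libraries alone, and 600 and 1160 with limma on log2 of TPM + 1, whose split runs the opposite way. They were 841 to 1137 higher and 455 to 700 lower when 1 library was left out. Of 163 named genes that were called, 105 kept the call and its direction under all 20 alternatives. Another 58 lost it under 1 or more, and 0 changed sign. The fit of the 8 libraries is 1 of these alternatives. The 15 genes named by size in each direction were chosen as called by it, so they could not lose the call there. Of 90 uncalled named genes, 44 were called under 1 or more. With the prefix term taken from cDC1 alone, the calls of Abca1, C2, C5ar2, Cd209c, Clec4g, Cxcl1 and Hgf ended. With the term from cDC2 alone, those of Apoe, C5ar2, Cp, Cxcl9, Epor, Ifi204, Isg15 and Psmb8 ended. These are among genes whose values the report gives, other than Cd4, whose call ended in 1 of the 20 alternatives. No paired analysis of the YFP+ populations was possible because no sort code holds both populations and the replicate numbers follow the order of deposit. The replicate block by sort code acts only through the dendritic cell libraries and gave 1078 higher and 894 lower genes. The prefix in dendritic cells, with 13 higher and 8 lower genes, gave 0 and 0 in their 11 libraries alone (2579 of 11662 genes had an unadjusted p under 0.05), 44 and 126 in all 33 libraries, and 32 and 44 without the filter on low counts. The difference of the prefix between cDC1 and cDC2 gave 0 genes, and 1 without that filter. The interaction with YFP, with 97 and 3 genes, gave 26 and 1 in 13 libraries, 375 and 30 with DESeq2, 40 and 1 with a replicate block by sort code (chosen after seeing the data), and 223 to 1489 and 10 to 248 with a CD11bhi YFP- library left out. The causes of these shifts were not tested.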
